A study of Mus musculus with 4 samples.

Results

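The genes described here are 10 genes of glycolysis, Slc2a1, Hk2, Pfkl, Pfkp, Aldoa, Gapdh, Pgk1, Eno1, Pkm and Ldha. They were listed by name and not picked by a threshold on their values, though earlier results of these data were known. All 10 were found among the 21090 genes of an RNA sequencing (RNA-seq) table of 4 mouse mammary tumor cell lines. All 10 had a mean of at least 1 RPKM (a read count divided by gene length in kilobases and by library size) and were among the 10871 genes tested. The study asked what changes when S100a4, which encodes a calcium-binding protein of the S100 family, is knocked out in metastatic mammary tumor cells.

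All 4 lines carried Pik3ca H1047R and Trp53 R270H alleles, with Cre recombinase driven by the MMTV promoter, which is active mainly in mammary epithelium, and the study describes their source as a primary mammary tumor of a C57BL/6 mouse that also had lung metastasis. The controls (n = 2) were the parental line and a line given the vector without an S100a4 guide. The knockouts (n = 2) carried a guide against exon 3 of S100a4 in one line and against exon 2 in the other. Cas9 and the guide came from a lentivirus, and infected cells were selected with puromycin. Each line had 1 library, and nothing in the sources used here says whether a line was a single clone. The labels give the cells the number 307 in 3 libraries and 308 in the exon 2 knockout, so the guide and the cell number cannot be told apart in that line. The study describes no infection or selection of the parental line, so the 2 controls also differ in that treatment. The p-values below measure the spread between lines within a group. In the controls this spread includes the treatment difference, and it may also be technical.

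Glycolysis breaks glucose down to pyruvate in the cytosol and yields ATP and NADH. Glucose enters through transporters such as Slc2a1, is trapped by hexokinase, and passes the committed phosphofructokinase step before aldolase splits it into triose phosphates. Lactate dehydrogenase then turns pyruvate into lactate, a route that many tumor cells use even when oxygen is present, and many of these genes are known targets of the hypoxia-inducible factors and of Myc.

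Promoters are shown for the 3 genes that lay at least 2-fold apart between the control lines, Pfkp, Eno1 and Ldha, and for Hk2, the only one of the 10 that was lower in the vector control than in the parental line. They are the 250 bases before the RefSeq start nearest to the principal transcript (GRCm38.p6), written 5′ to 3′ on the strand of the gene. Capitals mark the core of the hypoxia response element (ACGTG or GCGTG, on either strand).
Pfkp promoter, chr13:6648772-6649021 (minus strand): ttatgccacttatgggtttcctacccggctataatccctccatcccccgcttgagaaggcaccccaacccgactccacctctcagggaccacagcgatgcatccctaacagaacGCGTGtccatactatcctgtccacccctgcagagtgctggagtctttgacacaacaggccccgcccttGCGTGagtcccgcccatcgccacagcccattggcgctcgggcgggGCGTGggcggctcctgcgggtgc
Eno1 promoter, chr4:150236458-150236707 (plus strand): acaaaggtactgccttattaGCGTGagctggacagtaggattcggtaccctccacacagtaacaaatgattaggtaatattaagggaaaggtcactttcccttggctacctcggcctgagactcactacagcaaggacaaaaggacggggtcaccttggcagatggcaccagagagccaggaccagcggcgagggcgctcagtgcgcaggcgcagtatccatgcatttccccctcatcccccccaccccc
Ldha promoter, chr7:46845554-46845803 (plus strand): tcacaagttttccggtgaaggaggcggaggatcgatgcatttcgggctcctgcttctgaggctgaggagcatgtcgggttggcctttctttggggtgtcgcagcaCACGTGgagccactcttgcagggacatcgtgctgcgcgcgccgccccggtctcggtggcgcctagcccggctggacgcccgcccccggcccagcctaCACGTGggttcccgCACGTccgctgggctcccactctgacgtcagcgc
Hk2 promoter, chr6:82774455-82774704 (minus strand): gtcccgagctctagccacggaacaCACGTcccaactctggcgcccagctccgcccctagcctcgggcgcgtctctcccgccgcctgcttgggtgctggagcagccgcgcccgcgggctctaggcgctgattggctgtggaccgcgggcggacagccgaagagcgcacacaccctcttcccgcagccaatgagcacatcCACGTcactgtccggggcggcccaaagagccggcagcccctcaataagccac
The E-box CACGTG, a site that Myc is known to bind, contains the core on both strands, so each of the 2 E-boxes of Ldha counted as 2 of its 5 overlapping matches. The Pfkp promoter held 3 matches, the Hk2 promoter 2 and the Eno1 promoter 1. Over all 10 genes, 9 promoters held the core, with Pkm the exception. Where every RefSeq start of a gene was counted, 8 genes held it at every start and 10 at 1 start or more. Among 32851 promoters of the same length, 38.6% held the core and 6.02% held an E-box. This background took every RefSeq start and was not matched for GC content, which was 55.6% to 69.6% in the promoters of the 10 genes. A match describes letters in a window, not a bound site.

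Most of the coding sequence of 3 of the genes also occurs in other annotated genes, so a 75-base read from it cannot be placed by its sequence alone. For each of them the 75-base stretch (the read length of the study) found in the largest number of other genes is shown. The study sequenced reads in pairs, and the mate of a read was not considered in the window counts.
Gapdh coding window: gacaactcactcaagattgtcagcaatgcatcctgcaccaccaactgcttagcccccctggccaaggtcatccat
Pgk1 coding window: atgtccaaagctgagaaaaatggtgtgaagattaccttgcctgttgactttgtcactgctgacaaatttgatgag
Eno1 coding window: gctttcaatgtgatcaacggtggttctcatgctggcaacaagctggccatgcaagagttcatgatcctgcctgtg
The Gapdh stretch, coding bases 493 to 567, was found exactly in 48 other genes. The Pgk1 stretch, bases 808 to 882, was found in 3 others, and the Eno1 stretch, bases 445 to 519, in 5 others.

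The totals behind the RPKM values lay between 22472024 and 31235456 reads, and S100a4 itself was 3576 and 4741 RPKM in the parental and vector control lines and 1136 and 1105 RPKM in the exon 3 and exon 2 knockouts (adjusted p = 0.0731, limma). The RNA level does not measure the knockout. For the knockout lines the study reports truncating mutations in most S100a4 transcripts and loss of the protein by Western blot. The study traces the parental line to a sarcomatoid mammary adenocarcinoma and reports spindle morphology for cells from its sarcomatoid tumors. Of 6 epithelial markers Epcam, Cdh1, Krt5 and Krt14 were below 1 RPKM in every library, while the luminal keratins were expressed. Krt8 was 69.0, 27.5, 78.9 and 54.8 RPKM and Krt18 was 60.2, 6.10, 27.3 and 19.1 RPKM in parental, vector control, exon 3 and exon 2 cells. Of the mesenchymal markers, Vim was between 1362 and 2418 RPKM, Fn1 between 164 and 606 RPKM and Cdh2 between 15.7 and 49.4 RPKM. Col1a1 was 670, 6.93, 54.3 and 24.2 RPKM, and like Krt18 it was singled out after its values were seen. Both differed between the control lines in which glycolysis genes also differed, and their part in those differences was not tested. Of the leukocyte markers Cd3e and Adgre1 were at 0, Ptprc was at most 0.0101 RPKM and Cd79a at most 0.579 RPKM. The 4 erythroid and 3 adipocyte markers were at 0 and the 3 endothelial ones below 1 RPKM. In bulk RNA fewer cells of a type and less RNA per cell cannot be told apart. Cd68, a lysosomal gene used as a macrophage marker, was 4.92 and 3.36 RPKM in the controls and 11.5 and 13.2 RPKM in the knockouts (adjusted p = 0.105, limma).

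Aldoa had the highest mean over the 4 libraries (1094 RPKM) and was followed by Pkm (805 RPKM), Ldha (355 RPKM), Eno1 (216 RPKM) and Pfkl (102 RPKM). Below them came Pfkp (58.2 RPKM), Slc2a1 (50.8 RPKM), Pgk1 (17.5 RPKM), Hk2 (14.2 RPKM) and Gapdh (4.25 RPKM). The ranges over the 4 libraries overlapped for the neighbors Aldoa and Pkm, Ldha and Eno1, Pfkp and Slc2a1, and Pgk1 and Hk2, and did not overlap for the other 5 pairs of neighbors.

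**Figure D1:**
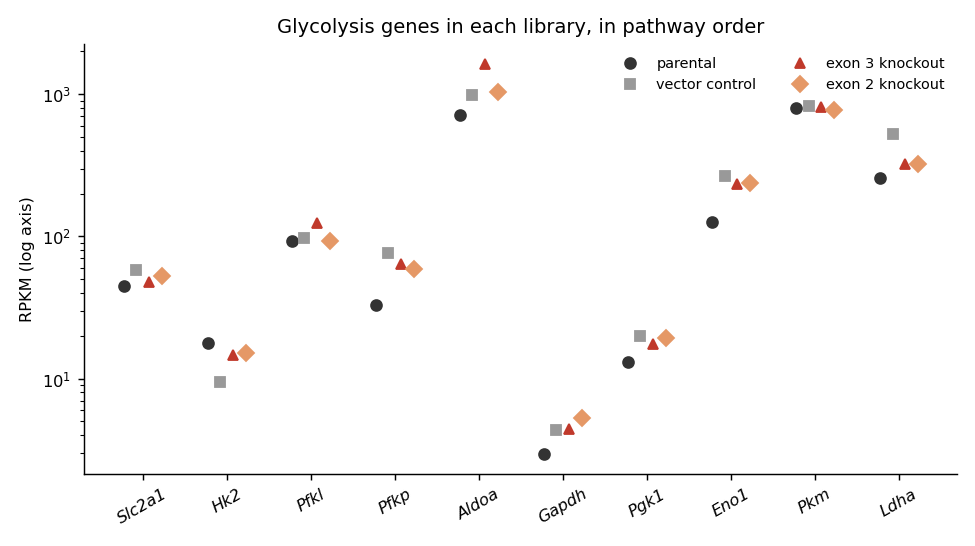
RPKM (log axis) of the 10 glycolysis genes, ordered along the pathway, with 1 point per library. Aldoa and Pkm have the highest mean RPKM and Gapdh the lowest. Levels of Gapdh, Pgk1 and Eno1, which share most of their coding sequence with other genes, are uncertain. The parental line (black circles) lies lowest for 7 of the genes that include Pfkp, Eno1 and Ldha.

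The genes are taken in pathway order, with positions from GENCODE M21 on the mouse build of these data. Slc2a1 (chr4:119108711-119137983, plus strand) encodes the widely expressed glucose transporter GLUT1. Its level was 44.8 RPKM in parental cells, 58.1 in vector control cells, 47.7 in the exon 3 line and 52.7 in the exon 2 line, so both knockouts lay between the controls. The log2 difference, knockouts minus controls on the scale of log2(RPKM + 1), was -0.025 ± 0.302 (SE, adjusted p = 0.977, limma). Hk2 (chr6:82725025-82774454, minus strand) encodes the inducible hexokinase that many tumors express. It was 17.8 RPKM in parental cells, 9.41 in vector control cells, 14.6 in the exon 3 line and 15.0 in the exon 2 line. The knockouts again lay between the controls, with a log2 difference of 0.18 ± 0.358 (SE, adjusted p = 0.811, limma).

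Phosphofructokinase catalyzes the committed step, and 2 of its subunits were among the genes. Pfkl (chr10:77986947-78010083, minus strand), the liver-type subunit, was 93.4 RPKM in parental cells, 97.1 in vector control cells, 124 in the exon 3 line and 93.3 in the exon 2 line. One knockout was thus above both controls and the other just below both, and the log2 difference was 0.18 ± 0.300 (SE, adjusted p = 0.771, limma). Pfkp (chr13:6579768-6648777, minus strand), the platelet-type subunit, was 33.2 RPKM in parental cells, 76.0 in vector control cells, 64.3 in the exon 3 line and 59.2 in the exon 2 line. Both knockouts lay inside the gap between the controls, and the log2 difference was 0.29 ± 0.382 (SE, adjusted p = 0.698, limma).

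Aldoa (chr7:126795234-126800751, minus strand) encodes the main aldolase of muscle and of most dividing cells, and it had the largest difference of the 10 genes. It was 711 RPKM in parental cells, 991 in vector control cells, 1641 in the exon 3 line and 1034 in the exon 2 line. Both knockouts were above both controls, but the exon 2 knockout exceeded the vector control by a ratio of only 1.04 (95% counting interval 1.03 to 1.06). The log2 difference of 0.63 ± 0.340 (SE) did not pass the test (unadjusted p = 0.0886, adjusted p = 0.329, limma). Without the exon 3 knockout it was 0.30 (adjusted p = 0.880, limma).

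Gapdh and Pgk1 encode the enzymes of the triose stage that first make NADH and ATP. Gapdh (chr6:125161715-125166467, minus strand) was 2.93 RPKM in parental cells, 4.34 in vector control cells, 4.42 in the exon 3 line and 5.32 in the exon 2 line. These values correspond to only 99, 119, 112 and 129 reads. Both knockouts were above both controls, but the ratio of the exon 3 knockout to the vector control was 1.02 (95% counting interval 0.780 to 1.33), so its side is not resolved at this depth. The log2 difference was 0.35 ± 0.357 (SE, adjusted p = 0.603, limma). Pgk1 (chrX:106187100-106203699, plus strand) was 13.1 RPKM in parental cells, 19.8 in vector control cells, 17.6 in the exon 3 line and 19.4 in the exon 2 line. The parental line was the lowest and the other 3 lay close together, and the log2 difference was 0.19 ± 0.328 (SE, adjusted p = 0.781, limma).

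The last 3 genes act from enolase to lactate. Eno1 (chr4:150236721-150248879, plus strand), the enolase of most tissues, was 127 RPKM in parental cells, 267 in vector control cells, 234 in the exon 3 line and 236 in the exon 2 line. The parental line stood apart from the other 3, and the log2 difference was 0.35 ± 0.363 (SE, adjusted p = 0.609, limma). Pkm (chr9:59656368-59679375, plus strand), the pyruvate kinase of muscle and tumor cells, was 805, 830, 808 and 777 RPKM in the same order, which made it the steadiest of the 10 genes with a highest value 1.07 times the lowest. Its log2 difference was -0.045 ± 0.291 (SE, adjusted p = 0.952, limma). Ldha (chr7:46841475-46855627, plus strand), which makes lactate, was 256 RPKM in parental cells, 521 in vector control cells, 323 in the exon 3 line and 320 in the exon 2 line. Both knockouts lay between the controls, and the log2 difference was -0.18 ± 0.358 (SE, adjusted p = 0.807, limma).

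No glycolysis gene was called changed between knockouts and controls. In limma 0 of 10 genes passed the adjusted threshold of 0.05, beside 0.0184% of all genes tested (2 of 10871), and 0 of 10 were under an unadjusted p of 0.05, beside 2076 of 10871. Of the settings that kept all 4 libraries, only median-ratio scaling gave a latter count above 0, at 1 of 10, beside 2176 of 10871. Both knockouts were above both controls for 2 of 10 genes, Aldoa and Gapdh, beside 21.9% of all genes, and both were below for 0 of 10, beside 31.2%. The log2 difference was above 0 for 7 of 10 genes, beside 45.0% of all genes, with a median of 0.18 beside -0.078. At least 2-fold in the same direction in all 4 pairs of a knockout and a control was seen for 0 of 10, beside 2%. Coding GC content was close in the 2 sets (median 55.7% in the 10 genes and 53.0% in all). After correction for GC content and length 7 of 10 were above 0, and the median was 0.23 beside 0.048 for all genes in that fit. The share of all genes above 0 was not counted under that correction, so 45.0% is not its background.

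For 7 of 10 genes the sign of the difference turned when 1 library was left out. Without the parental line the log2 difference was -0.30 for Pfkp, -0.095 for Pgk1 and -0.18 for Eno1, and the median of the 10 genes was -0.081. Without the vector control it was 0.16 for Slc2a1, -0.25 for Hk2 and 0.33 for Ldha. The log2 difference in that fit was largest for Eno1 at 0.89, Pfkp at 0.88 and Aldoa at 0.87. Without the exon 3 knockout it was 0.046 for Slc2a1 and -0.030 for Pfkl. Aldoa, Gapdh and Pkm kept their sign when any 1 library was left out. With median-ratio scaling, which moved the median of all genes by 0.10, Pkm was 0.070 and Slc2a1 0.088.

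The summed level of the 10 genes was 2104 RPKM in parental cells, 2875 in vector control cells, 3280 in the exon 3 line and 2613 in the exon 2 line. These sums overlapped between the groups, with means of 2489 ± 545 in controls and 2947 ± 472 in knockouts (SD, n = 2 each, exact permutation p = 0.667, two-sided, where 0.333 is the smallest this design allows). Without Aldoa the log2 ratio of the group means went from 0.24 to -0.026. The 10 genes made up 0.440%, 0.537%, 0.575% and 0.484% of the RPKM total in the same order of libraries.

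The control lines differed from each other in several glycolysis genes. The vector control was at least 2-fold above the parental line for 3 of 10 genes, beside 3.34% of all genes. These were Pfkp with a ratio of 2.29 (95% counting interval 2.19 to 2.40), Eno1 with 2.10 (2.04 to 2.17) and Ldha with 2.04 (1.98 to 2.09). It was at least 2-fold below for 0 of 10, beside 5.19%, and Hk2 came closest with a ratio of 0.527 (0.480 to 0.578). By any amount, 9 of 10 genes were higher in the vector control, beside 63.4% of all genes, and the median log2 difference was 0.46 beside 0.16. The intervals cover counting error only, each line had 1 library, and the difference has no replicate check. Eno1 and Ldha lay near the 2-fold limit, and the count past it was 1 with median-ratio scaling or GC and length correction and 2 with quantile normalization or equal RPKM totals.

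**Figure D2:**
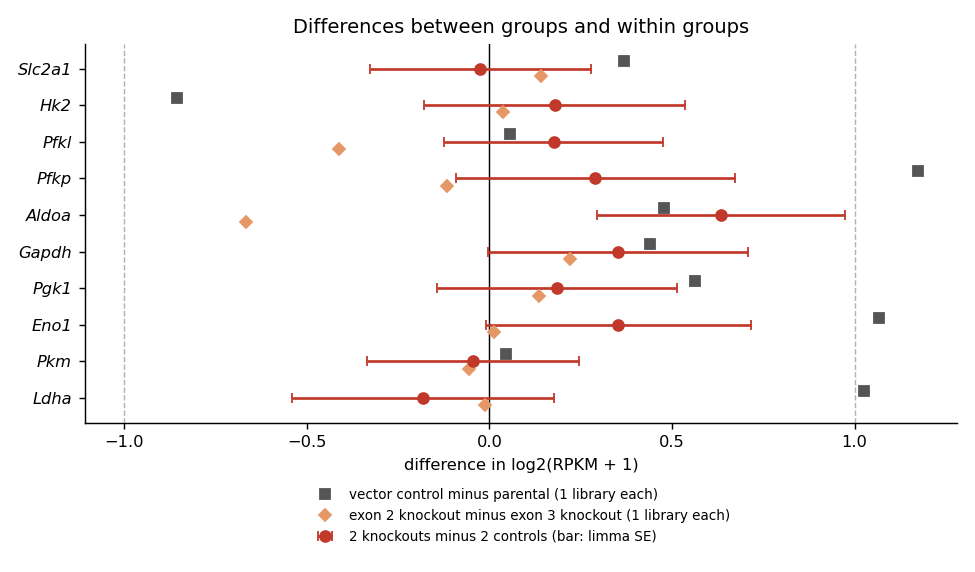
Differences in log2(RPKM + 1) for each gene: the 2 knockouts minus the 2 controls (circles, bars are limma standard errors), the vector control minus the parental line (squares) and the exon 2 minus the exon 3 knockout (diamonds). Dashed lines mark 2-fold, which the squares pass for Pfkp, Eno1 and Ldha.

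The 2 knockout lines were at least 2-fold apart for 0 of 10 genes, beside 4.99% of all genes, and the median log2 difference of exon 2 minus exon 3 was -0.00011 beside 0.054. Ldha and Eno1 had ratios of exon 2 to exon 3 of 0.991 (95% counting interval 0.960 to 1.02) and 1.01 (0.980 to 1.04). Aldoa, at 0.630 (0.621 to 0.639), and Pfkl, at 0.750 (0.723 to 0.778), were lower in the exon 2 knockout.

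Each knockout was also set against each control, in 4 comparisons that share libraries. The exon 3 knockout was at least 2-fold from the parental line for 1 of 10 genes, Aldoa at a ratio of 2.31 (95% counting interval 2.27 to 2.34), beside 16.7% of all genes, and from the vector control for 0 of 10, beside 19.9%. The exon 2 knockout was at least 2-fold from the parental line for 0 of 10, beside 10.4%, and from the vector control for 0 of 10, beside 13.8%. The median of the 10 genes was 0.40 and 0.43 for the exon 3 and exon 2 knockouts against the parental line, and -0.10 and -0.077 against the vector control. For Ldha the exon 3 knockout was 1.26 times the parental line and 0.620 times the vector control.

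Most steps have more than one enzyme, and the share of each isoenzyme within a step was set out from RPKM values, which are per length. Hk2 gave 18.9% of hexokinase RPKM in parental cells, 9.20% in vector control cells, 12.4% in the exon 3 line and 11.5% in the exon 2 line, and Hk1, the housekeeping hexokinase, gave nearly all of the rest. Pfkp gave 18.6%, 33.7%, 26.0% and 29.7% of phosphofructokinase in the same order. Both knockouts lay between the controls in each case.

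Aldoa gave 87.6%, 98.0%, 94.6% and 96.2% of aldolase, and Aldoc, the brain-type aldolase, gave the rest with 101, 20.01, 94.1 and 41.0 RPKM. Eno1 gave 35.6%, 51.6%, 62.9% and 48.3% of enolase, and Eno3, the muscle enolase, gave most of the rest with 216, 246, 131 and 244 RPKM. The Eno1 shares overlapped between the groups. They are uncertain, because 75.1% of the 75-base coding windows of Eno1 occur exactly in another gene, against 0% for Eno3. Ldha gave between 92.2% and 95.2% of lactate dehydrogenase in all 4 lines. Slc2a1 gave 75.9%, 89.3%, 67.0% and 71.1% of the summed RPKM of the listed transporters Slc2a1, Slc2a3, Slc2a4, Slc2a8 and Slc2a12. Its share was lower in both knockouts than in both controls, while Slc2a8, an intracellular glucose transporter, gave 21.7%, 10.2%, 32.3% and 28.0% (exact permutation p = 0.333, the smallest possible here). The mean RPKM in controls and knockouts was 51.4 and 50.2 for Slc2a1 and 9.73 and 21.9 for Slc2a8.

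**Figure D3:**
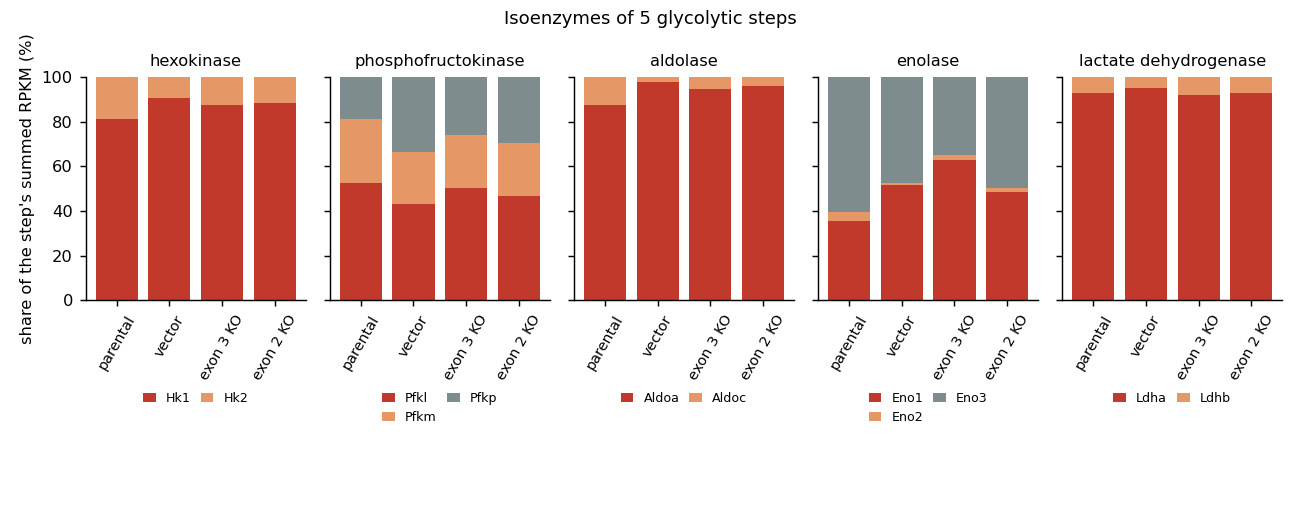
Share of each isoenzyme in the summed RPKM of its step (percent, stacked bars that start at 0) in the 4 libraries. Eno1 takes 35.6% of enolase in the parental line and 62.9% in the exon 3 knockout, and Aldoa and Ldha dominate their steps in every library.

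Coding sequence shared with other genes was unequal among the 10 genes. Of the 75-base windows of the coding sequence, 94.0% of those of Gapdh and 100% of those of Pgk1 occurred exactly in another annotated gene, as did 75.1% for Eno1, 20.1% for Pkm, 8.99% for Ldha and 1.86% for Aldoa. For Slc2a1, Hk2, Pfkl and Pfkp it was 0%, so Hk2, at 14.2 RPKM, was low without shared windows. Gapdh had 146 near-copies (at least 90% identical over at least 50% of the coding sequence), of which 143 were pseudogenes. Pgam1, a phosphoglycerate mutase of the same pathway with 100% of its windows shared, was also low, at 1.004 to 1.40 RPKM. Eno1 is the exception, with most windows shared and a mean of 216 RPKM. How reads that match several places were counted is not given in the sources used here, so levels of Gapdh, Pgk1, Pgam1 and Eno1 are uncertain, and the part of shared sequence in them was not tested.

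**Figure D4:**
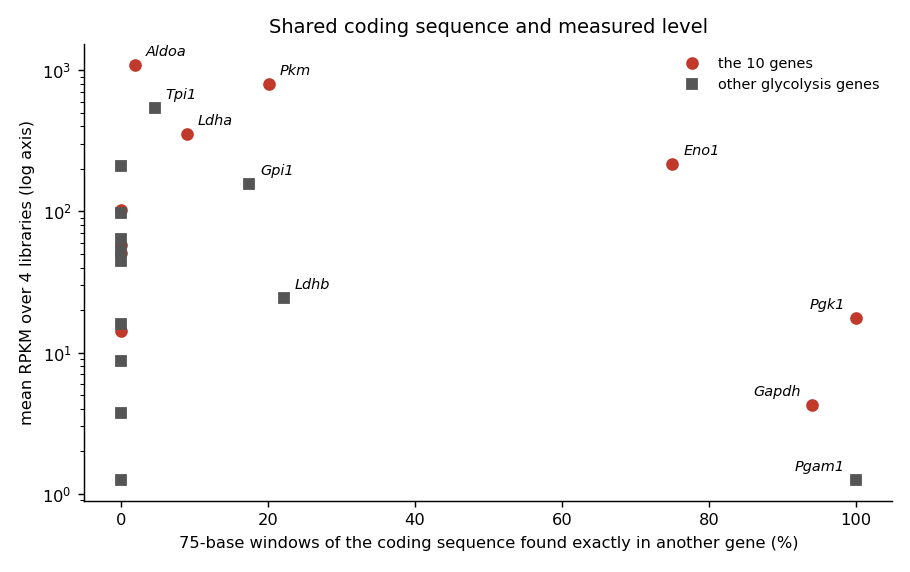
Percent of 75-base coding windows that occur exactly in another annotated gene (horizontal axis) against the mean RPKM over 4 libraries (log axis) for the 10 genes (circles) and the other glycolysis genes with a mean of at least 1 RPKM (squares). Gapdh, Pgk1 and Pgam1 combine over 90% shared windows with low levels, and Eno1 does not.

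Other genes of the pathway were read from the same fit. Of 22 listed, 13 were tested and 0 passed the adjusted threshold in limma. An unadjusted p under 0.05 (limma) was reached by 3 of the 13, beside 2076 of 10871 genes tested. The log2 differences were above 0 for 10 and below for 3, beside 45.0% of all genes above 0. Their median was 0.17, beside -0.078 for all genes. Slc2a8 had the largest positive difference (1.15, adjusted p = 0.153), and Gpi1, which links the hexokinase and phosphofructokinase steps, had 0.80 (adjusted p = 0.224). Bpgm, the enzyme of the bisphosphoglycerate shunt, had -1.49 (adjusted p = 0.186) and was 27.0, 112, 23.7 and 15.2 RPKM, so the vector control alone was high. Tpi1, which interconverts the triose phosphates, had 0.23, Hk1 0.37, Pfkm 0.029, Ldhb 0.17, Aldoc 0.45, Gapdhs 0.79, Pgam1 0.14, Pgam2 -0.63, Eno2 0.041 and Eno3 -0.36, with adjusted p of at least 0.299 for each.

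Neighboring routes were counted in the same fit, and 0 genes were called by limma in any of them, beside 2 of 10871 genes tested. An unadjusted p under 0.05 (limma) was reached by 2076 of all genes tested. The same was seen for 1 of 5 fructose bisphosphate regulators and 0 of 2 genes of monocarboxylate transport. It was seen for 3 of 13 genes of pyruvate entry, 1 of 3 of gluconeogenesis and 1 of 7 of the pentose phosphate route. Log2 differences were above 0 for 45.0% of all genes. Fructose bisphosphate regulators had 3 of 5 genes above 0, monocarboxylate transport 1 of 2, entry of pyruvate to mitochondria 6 of 13 and gluconeogenesis 2 of 3. The pentose phosphate route, which branches off after hexokinase, had 6 of 7 above 0, with a median of 0.32 beside -0.078 for all genes. Its genes were higher in the vector control than in the parental line for 7 of 7, beside 63.4% of all genes. The median of that difference was 0.66, beside 0.16.

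Hif1a, which encodes the oxygen-regulated subunit of a factor known to drive glycolysis genes, was 76.4 RPKM in parental cells, 125 in vector control cells, 24.5 in the exon 3 line and 30.02 in the exon 2 line. Both knockouts were at least 2-fold below both controls, with a log2 difference of -1.81 that missed the threshold (adjusted p = 0.0909, limma). Epas1, a related subunit, was 2.79, 2.16, 0.389 and 0.424 RPKM in the same order, with a log2 difference of -1.30 (adjusted p = 0.139, limma). They belong to 9 tested regulators of glycolysis genes, of which 0 were called by limma and 4 were above 0, beside 45.0% of all genes. Of the 9, 3 reached an unadjusted p under 0.05 (limma), beside 2076 of 10871. Myc, another of the 9, was 256, 153, 201 and 402 RPKM (log2 difference 0.52, adjusted p = 0.474, limma), and its groups overlapped. Of 12 other hypoxia targets 0 were called by limma, and 8 were above 0, beside 45.0% of all genes. An unadjusted p under 0.05 (limma) was reached by 2 of the 12, beside 2076 of 10871 genes tested. Ndrg1 was at least 2-fold higher in all 4 pairs (21.3, 27.8, 63.2 and 76.6 RPKM, adjusted p = 0.0969, limma). Between the controls, 5 of the 12 were at least 2-fold lower in the vector control, beside 5.19% of all genes. None of the 12 was at least 2-fold higher, beside 3.34% of all genes. Pfkp, Eno1 and Ldha, picked for their 2-fold difference, were higher in the vector control. Each line had 1 library, and the cause of these differences was not tested. The 5, named after their values were seen, were Adm, Car12, P4ha1, Egln3 and Car9.

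Genes outside the lists with the profile most like the mean of the 10 genes were N4bp3, Gcdh, U2af2, Sgsh and Harbi1. Likeness was the Euclidean distance between centred log2(RPKM + 1) profiles over the 4 libraries, and it lay between 0.0231 and 0.0469 for these genes. The mean profile was -0.31 in parental cells, 0.12 in vector control cells, 0.13 in the exon 3 line and 0.060 in the exon 2 line. Among the 10 genes Pgk1 was closest to it, at 0.171, and Hk2 farthest, at 0.917.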

How the data were processed

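RNA-seq libraries of 4 cell lines were prepared from total RNA and sequenced by the authors. The authors deposited RPKM values (read counts divided by gene length and by library size) for 21090 genes, with no log scale and no scaling between libraries, and all columns were matched to a library by its title. The submitters' processing notes name CASAVA 1.8, GSNAP and GRCm38. The gene model and counting rule are not given in the sources used here. The lengths behind the RPKM values are mostly coding lengths. Whole reads were recovered from the values, and with a tolerance of 0.001 reads 100% of 15405 genes above 0 came out whole.

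Values were analysed as log2(RPKM + 1), which understates changes of low genes. Genes with a mean of at least 1 RPKM were fitted in limma 3.58.1 (R 4.3.3, intensity trend), 2 knockouts against 2 controls without covariates, with Benjamini-Hochberg adjustment over 10871 genes and a threshold of 0.05. Single values were compared by exact permutation tests. Ratios of 2 libraries carry 95% counting intervals. Shared windows were sought in GENCODE M21 transcripts and near-copies with BLAST 2.17.0. Promoters came from RefSeq (GRCm38.p6). Where GENCODE M21 gives the symbol Aldoa to more than 1 gene, the one holding the coding sequence used was taken. Other steps used Python 3.11.15, numpy 2.4.6, pandas 2.3.3, scipy 1.17.1 and matplotlib 3.10.9.

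Named genes were the 10 members, S100a4, the other glycolysis genes with a mean of at least 1 RPKM, genes of the remaining lists that passed the adjusted threshold or were at least 2-fold apart in all 4 pairs, and the 5 nearest in profile. Cell type markers were named to check the cells. Myc, introduced with the pathway, and 5 other hypoxia targets were named after their values were seen. The genes and lists were chosen with earlier results of these data known. Alternatives were a pseudocount of 0.1, no filter, a filter at 5 RPKM, median-ratio and quantile scaling, limma without trend or with a robust prior, GC and length correction, 3-fold and 1.5-fold limits, and leaving out each library. Scaling to equal RPKM totals was added after seeing the data.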

Additional observations from a re-analysis of the deposited data

Results flagged for a closer look

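Of the 10 glycolysis genes, 1 had its knockouts on opposite sides of both controls, and this was Pfkl. It was 93.4 RPKM in parental cells, 97.1 in vector control cells, 124 in the exon 3 line and 93.3 in the exon 2 line, and the log2 ratio of exon 3 over exon 2 was 0.41. The exon 2 value lay below the parental value by a ratio of 0.999 (95% counting interval 0.963 to 1.04), so its side is not resolved at this depth. Pfkm, the muscle-type subunit, did likewise among the other glycolysis genes, at 51.3, 52.1, 59.0 and 47.1 RPKM in the same order. Of all genes tested, 857 of 10871 (7.88%) had knockouts on opposite sides of both controls. With 1 library each, no test was made of exon 3 against exon 2, and the difference was not tested.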

How the results depend on the processing

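Of the 10 genes, 0 were called by limma under the 13 alternatives run (Gapdh was not tested at 5 RPKM), and 0 were 2-fold apart in all 4 pairs. Of the alternatives that kept all 4 libraries, only median-ratio scaling had any of them under an unadjusted p of 0.05 (limma). It had 1, beside 2176 of 10871 genes. The count over all genes (2) was 1 with a pseudocount of 0.1 or quantile normalization, 32 with a filter at 5 RPKM, 285 with a robust prior, and 0 with no filter, median-ratio scaling, equal RPKM totals or GC and length correction (unadjusted p under 0.05 for 2132, 2176, 2293 and 1405 genes), and 3 to 788 with 1 library left out (788 without the parental line, 451 without the vector control). The all-gene median moved by 0.10 under median-ratio scaling, 0.12 under quantile normalization, -0.12 under equal totals and 0.13 under GC and length correction. The 2 genes with non-overlapping groups became 1 at 5 RPKM, 4 under median-ratio scaling and 3 to 9 with 1 library left out, where fewer libraries have to be separated. The share of all genes with non-overlapping groups was counted under the main setting only. The counts under the alternatives therefore cannot be set beside all genes, and no conclusion is drawn from them. The count of genes 2-fold higher in the vector control (3) was 2 under quantile normalization, 2 under equal totals, 1 under median-ratio scaling, 1 under GC and length correction and 0 at 3-fold. The other glycolysis genes gave 0 to 3 calls (3 without the parental line), and the median log2 difference of the 10 genes ran from -0.081 to 0.40, with 1 library left out. The summed RPKM went from 0.24 to -0.026 without Aldoa. Under median-ratio scaling Slc2a1 was 0.088 and Pkm 0.070. With 1 library left out the log2 difference ran from -0.21 to 0.16 for Slc2a1, -0.25 to 0.61 for Hk2, -0.030 to 0.38 for Pfkl, -0.30 to 0.88 for Pfkp, -0.095 to 0.47 for Pgk1, -0.18 to 0.89 for Eno1 and -0.69 to 0.33 for Ldha. A group left with 1 library was assumed to vary like the other. The causes of these shifts were not tested. With 2 libraries a group, only large differences can pass, and Gapdh rests on 99 to 129 reads a library. No paired analysis was possible because the labels carry no replicate numbers.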
